A study of Mus musculus with 6 samples.

Results

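Open chromatin that was found in 1 mouse pro-B cell line, CBE_1, and in neither of 2 other lines was described region by region. ATAC-seq inserts sequencing adapters into accessible DNA with a transposase, and a peak marks a stretch where insertions pile up. Peaks of 6 lists were merged wherever they overlapped by 1 bp or more, and a merged region was kept when both CBE_1 lists had a peak in it and none of the 4 lists of the lines called WT and CBE_2 did. This gave 998 of 149724 regions (0.667%), called CBE_1-only regions below. The members were chosen by presence and absence of a peak in these lists, so presence, fold and rank are given as descriptions, without a test.

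All 3 lines are RAG2-deficient pro-B cell lines of strain 129SV from bone marrow, cultured without treatment, and each gave 2 libraries from 200000 cells per library with 11 PCR cycles. WT carries wild-type IgH alleles. CBE_1 and CBE_2 have the genotype IGCR1-/-, and the numbers 1 and 2 tell the 2 lines apart. Genotype rests on 1 WT line, the labels do not say whether a line is 1 clone or whether duplicates came from separate cultures, and a difference between CBE_1 and the others is a difference between lines. The CBE_1 lists were the shortest, with 72318 and 80242 peaks, against 94665 to 112241 in the other 4, and read depth is unknown. Marker genes of the labelled cell type were not analysed here, because the peak lists are on build mm9 and the only gene table used here is on a later one.

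Pro-B cells are the stage at which B lymphocyte precursors assemble the immunoglobulin heavy chain gene (IgH) from VH, D and JH segments with the RAG recombinase. IGCR1 lies between the VH part and the D part of the locus and holds CTCF-binding elements (CBEs), sites for an insulator protein. In wild-type cells it keeps D and JH segments apart from nearby VH segments until D has joined JH. The Igk locus encodes the kappa light chain and is normally rearranged at a later stage. Cells without RAG2 cannot make either rearrangement, so both loci keep their germline order.

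CBE_1-only regions were a small part of what the CBE_1 lists held. Of 55374 regions with a peak in both CBE_1 lists, 47767 (86.3%) were present in all 6 lists, and the 998 made up 1.80%. Between these ends lay 830 regions with a peak in 1 of the 4 other lists, 3540 in 2 and 2239 in 3. By the same rule CBE_2 had 4701 regions of its own (3.14% of all regions) and WT 13003 (8.68%). Recurrence between duplicates also differed in size between the lines: 8380 regions had peaks in CBE_1 lists alone, and 11.9% of these were in both, against 27.9% of 16870 for CBE_2 and 36.8% of 35293 for WT. In these lists CBE_1 had the fewest regions of its own, and the lowest share of them was found in both libraries. Its lists were also the shortest, and the order of the lines was not examined with lists of the same length. The CBE_1 count rests on list length and on both CBE_1 libraries. It was 2192 with lists of the same length and 396 with the better 50% of each list. Without CBE_1 replicate 1 or 2 it was 4844 and 4829, when presence in 1 list is enough.

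Most CBE_1-only regions were weak peaks of their lists. Each peak was given a percentile of the authors' −log10 p-value within its own list, from 0 for the weakest peak to 100 for the strongest. The median percentile was 25.0 in CBE_1 replicate 1 and 20.9 in replicate 2, with quartiles of 8.55 and 37.1, and of 12.2 and 38.9. Deposited folds over background had medians of 3.32 and 2.92, and reached 22.0 and 17.8. The median of the mean percentile over both lists was 21.2, against 26.5 for CBE_2-only and 30.2 for WT-only regions in their own lists, a difference that was not tested. Regions in all 6 lists stood at 66.2 in the CBE_1 lists. Percentiles are taken within lists of unequal length, and median folds did not repeat this order of the lines. They were 3.19 and 3.11 for CBE_2-only regions and 3.25 and 3.19 for WT-only regions.

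The duplicates ranked the same regions only roughly alike. The percentiles of a region differed by a median of 8.59 points between the CBE_1 lists, and the rank correlation of folds across the 998 regions was 0.58 (Spearman's rho, a description across regions of 2 libraries). The 2 summits lay a median of 67.5 bp apart, against 34 bp in regions of all 6 lists, and were within 100 bp in 65.5%, against 82.5%. Weak and strong members differed here as well. In 384 regions both percentiles were under 25, and their summits were a median of 90.5 bp apart. In 112 regions, called strong below, both percentiles were 50 or higher, and the summits were 33 bp apart.

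**Figure D1:**
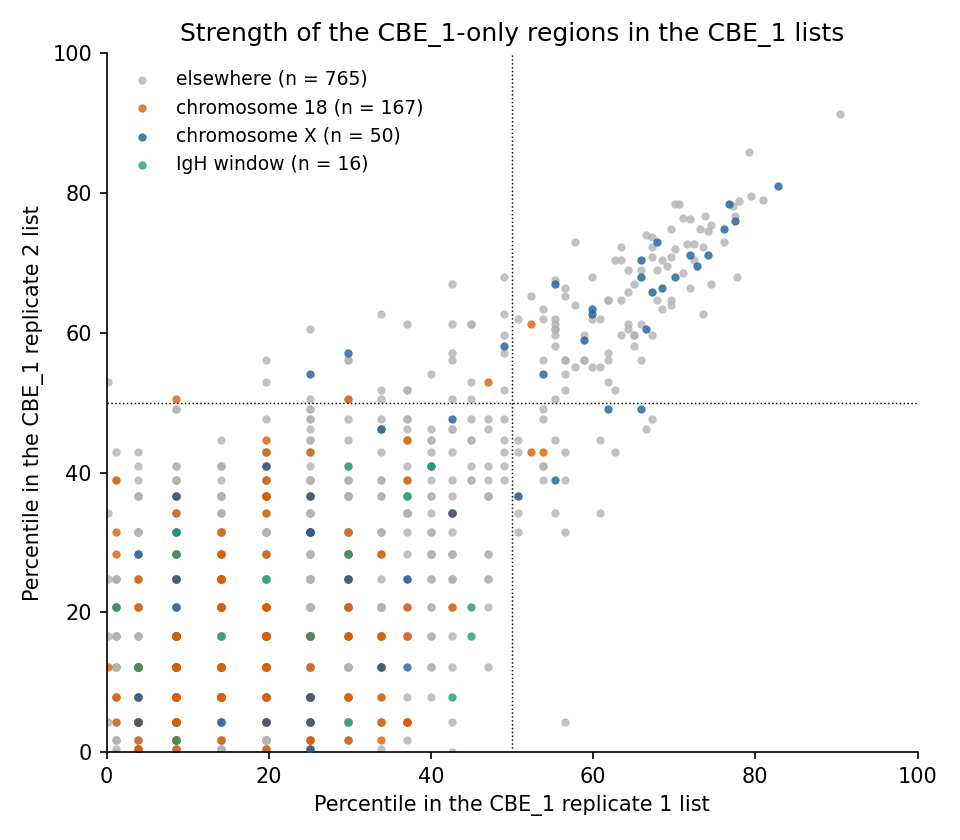
Percentile of each CBE_1-only region in the list of CBE_1 replicate 1 (x axis) and replicate 2 (y axis), with 0 the weakest and 100 the strongest peak of a list. Each of the 998 points is a region, dotted lines mark the 50th percentile, and points fall on a grid because weak peaks share few distinct values. The 167 chromosome 18 regions and the 16 IgH regions crowd the lower left, and 19 of the 50 chromosome X regions have both percentiles at 50 or higher. Of these 19, 13 belong to 1 group of 14 regions.

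Widths followed strength. The merged regions were 392 bp wide in the median and ranged from 204 to 1887 bp, and strong regions had a median of 755 bp, against 363 bp for those with both percentiles under 25. CBE_2-only and WT-only regions had medians of 391 and 398 bp, and regions of all 6 lists 1053 bp. Within the CBE_1 lists the single peaks of the members measured 292 and 297 bp in the median. The weaker 50% of all peaks of those lists measured 296 and 307 bp, so the members were about as wide as other weak peaks. The 3 widest members lay on chromosome 12 at 72931307 to 72933193 (1887 bp), on chromosome 1 at 174135922 to 174137747 (1826 bp) and on chromosome 1 at 125941410 to 125942930 (1521 bp).

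The strongest CBE_1-only region was also the widest, the one on chromosome 12, with folds of 22.0 and 17.8 in CBE_1 replicates 1 and 2. It stood at percentiles 90.5 and 91.3, its summits in the duplicates were 1 bp apart, and the nearest peak of any WT or CBE_2 list was 61.5 kb away. It is isolated from other members too, with the nearest at 1602 kb. Next came chromosome X at 47972980 to 47974165, with folds of 14.6 and 11.3, a member of the group described below. Chromosome 11 carried a member with folds of 12.2 and 10.5 at 78136120 to 78136975 and another with 10.9 and 9.80 at 80136517 to 80137235. Each had its nearest member over 100 kb away.

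Of the remaining leading regions, chromosome 17 at 38132455 to 38133275 was the only one of the 10 with the higher fold in replicate 2, 14.2 against 12.1. Another member lay 0.490 kb from it. The member on chromosome 1 at 155271868 to 155272770, with folds of 13.3 and 10.2, was close to other lines: a peak of another line lay 1.06 kb away. The same closeness held for chromosome 1 at 174135922 to 174137747 (folds 11.0 and 9.17, 1.64 kb) and chromosome X at 133511078 to 133511699 (folds 10.6 and 9.90, 1.48 kb). The member on chromosome 16 at 13219113 to 13219721 (folds 11.3 and 10.1) lay 36.2 kb from the nearest peak of the other lines. The last of the 10, chromosome X at 47976025 to 47976660 with folds of 11.0 and 8.86, ends the group on that chromosome. Leading members were thus of both kinds, some far from any other peak and some beside one.

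The spacing of members along the chromosomes was described without an equally long set of other regions beside it, so clustering beyond that of regions in general was not tested. Another member lay within 100 kb of 409 regions (41.0%), within 10 kb of 144 (14.4%) and within 1000 kb of 769 (77.1%), and the median distance to the next member was 175 kb. Runs with gaps of at most 100 kb formed 151 groups, of which 101 were pairs, and 589 regions stood alone. Of the 11 groups with 5 members or more, 5 lay on chromosome 18. CBE_2-only and WT-only regions had another of their kind within 100 kb in 57.2% and 80.1%. Those lists are 4701 and 13003 regions long, and a longer list has nearer neighbours, so the shares do not compare the tendency to cluster. The CBE_1 share was 20.7% with the better 50% of each list, which left 396 members, and 70.4% and 72.5% without CBE_1 replicate 1 or 2.

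The group with most members was a compact domain on chromosome X at 47919495 to 47976660. It spans 57.2 kb and has 14 CBE_1-only regions among 16 regions in all, none of them in all 6 lists. CBE_1 had 16 and 15 peaks there, WT replicate 1 had 1, and WT replicate 2 and both CBE_2 libraries had none. The domain was strong as well as dense: folds ran from 4.67 to 14.6 in replicate 1 and from 3.44 to 11.3 in replicate 2, and 13 of the 14 members were strong, out of 112 strong members in the genome. The other 36 members on chromosome X included 6 strong ones.

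Within this domain the peaks followed one another at short steps. Both CBE_1 lists had a peak in 15 of its 16 regions, and of the 14 steps between the summits of these 15 regions, 10 measured 2 to 4 kb in each list, limits chosen after the positions were seen. The median step was 3.07 kb in replicate 1 and 3.05 kb in replicate 2, the shortest 2.18 and 2.14 kb and the longest 10.4 kb in both. Inside that longest step replicate 1 alone had a further peak, at 47925395 to 47925704 with a fold of 3.32, which is the region left out of the steps. One of the 15 regions, at 47964865 to 47965877, had folds of 9.20 and 7.61 in CBE_1 and is no member because it overlaps the single peak of WT replicate 1.

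Folds at the shared regions on either side of the domain showed no such contrast. The nearest on the lower side, at 47902599 to 47904001, gave the WT libraries folds of 8.87 and 9.67, the CBE_1 libraries 8.44 and 6.36, and the CBE_2 libraries 8.09 and 7.19. On the upper side, at 47988041 to 47989159, they were 18.8 and 17.7, 17.2 and 15.5, and 14.1 and 12.8. Folds are each list's own values. In both flanks the folds of both CBE_1 libraries were below those of both WT libraries. The flanks were taken from regions of all 6 lists, so a peak in every line was given.

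**Figure D2:**
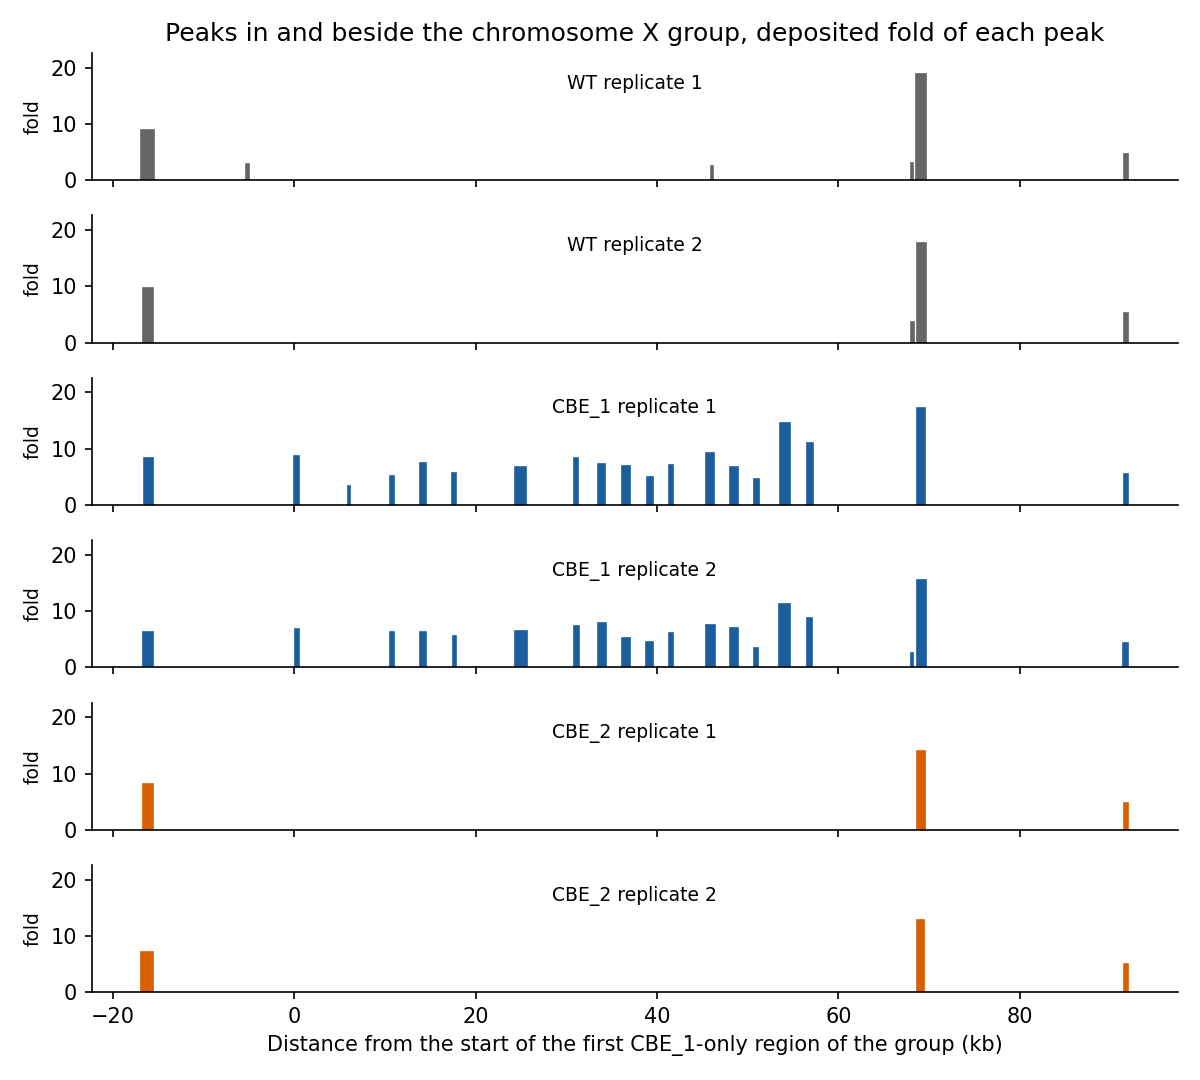
Peaks of each of the 6 libraries in and beside the chromosome X group. The x axis gives the distance in kb from the start of its first CBE_1-only region, each bar spans a peak, and bar height is the deposited fold, which is scaled within each list. CBE_1 has 16 and 15 peaks between 0 and 57.2 kb where the other 4 libraries have 1 in all. The shared peaks on both sides are present in all 6 by definition.

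The next groups by number of members were of another kind. On chromosome 18 at 80649763 to 80956220, 11 members were scattered over 306 kb among 163 regions, 33 of them in all 6 lists. Their folds were at most 3.47 and 4.27, and none was strong. The CBE_1 lists had 143 and 142 peaks in this span, the WT lists 128 and 125 and the CBE_2 lists 55 and 68. Another group, on chromosome 18 at 9858488 to 10014896, had 9 members among 42 regions, with folds of at most 3.47 and 3.86. Here CBE_1 had 26 and 34 peaks, WT 10 and 10, and CBE_2 5 and 8. Both CBE_1 libraries had more peaks than each of the other 4 in both spans, by a small margin over WT in the first and a wide one in the second. The 11 and 9 members that set the spans count in the CBE_1 lists alone, so part of this surplus is given by the rule.

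Groups on chromosomes 7 and 6, picked out after their values were seen, resembled the domain on X in being nearly empty in the other lines. On chromosome 7 at 124521786 to 124703011, 9 members lay among 16 regions, 1 of them in all 6 lists. There were 13 and 16 peaks in CBE_1, 1 in each WT library and 3 in each CBE_2 library. Folds of the members ran from 2.71 to 8.44 and from 3.13 to 8.96. The flanking shared region on the upper side, at 124756055 to 124757944, was higher in CBE_1: its percentile among shared regions was 80.1 and 80.5 in the CBE_1 libraries, against 53.1 and 57.4 for WT and 28.8 and 33.1 for CBE_2. The one on the lower side, at 123844466 to 123846777, lies much farther from the group than the upper one. It was low in both mutated lines, with 18.1 and 6.55 for CBE_1 and 6.23 and 11.3 for CBE_2, against 76.3 and 77.7 for WT. On chromosome 6 at 60894721 to 61056720, outside the Igk window, 5 members were found among 6 regions, with 6 and 5 peaks in CBE_1 and none in the other 4 lists. These were weak, with folds of at most 4.07 and 3.75, and lay 1446 to 1608 kb from the nearest region of all 6 lists.

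Chromosome 18 held more CBE_1-only regions than any other chromosome, 167 or 16.7% of the members, while it held 5.68% of all regions. They were 1.96% of its regions, against 0.588% elsewhere, and 6.24% of its regions with a peak in both CBE_1 lists, against 1.58% elsewhere. They were weak: the median folds were 3.02 and 2.71, and 1 of the 167 was strong. Another member lay within 100 kb of 66.5% of them, against 35.9% elsewhere. Where members are denser they have nearer neighbours, so these 2 shares do not compare the tendency to cluster. The peak lists as a whole differed on this chromosome. Its share was 5.68% and 5.97% in the CBE_1 lists, 5.37% and 5.20% in the WT lists and 3.12% in each CBE_2 list. Regions of both CBE_1 and both WT lists that were missing from both CBE_2 lists made up 3.10% of its regions, against 0.505% elsewhere. The part of these chromosome-wide shares in the count of members was not tested.

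Chromosomes X and 11 came next, with 1.58% (50 members) and 1.27% (102 members) of their regions. On X the members were stronger, with median folds of 4.07 and 4.01, and their median mean percentile was 43.6, the highest of any chromosome. The group at 47919495 to 47976660 gave 14 of these 50 members, with median folds of 7.01 and 6.46. The 36 members of X outside this group had median folds of 3.47 and 3.39, against 3.32 and 2.92 for all members. On 11 the median mean percentile was 19.3, below that of all members. Chromosome 11 held 7.14% and 6.72% of the CBE_1 peaks, above the 5.27% to 6.16% of the other 4 lists, while for X the CBE_1 shares of 2.12% and 2.31% lay between those of WT (1.96% and 2.00%) and CBE_2 (2.38% and 2.40%). The lowest shares were those of chromosomes 14 (11 members, 0.176%) and 19 (10 members, 0.203%). Chromosomes 18, 11 and X together held 319 members, or 32.0%.

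**Figure D3:**
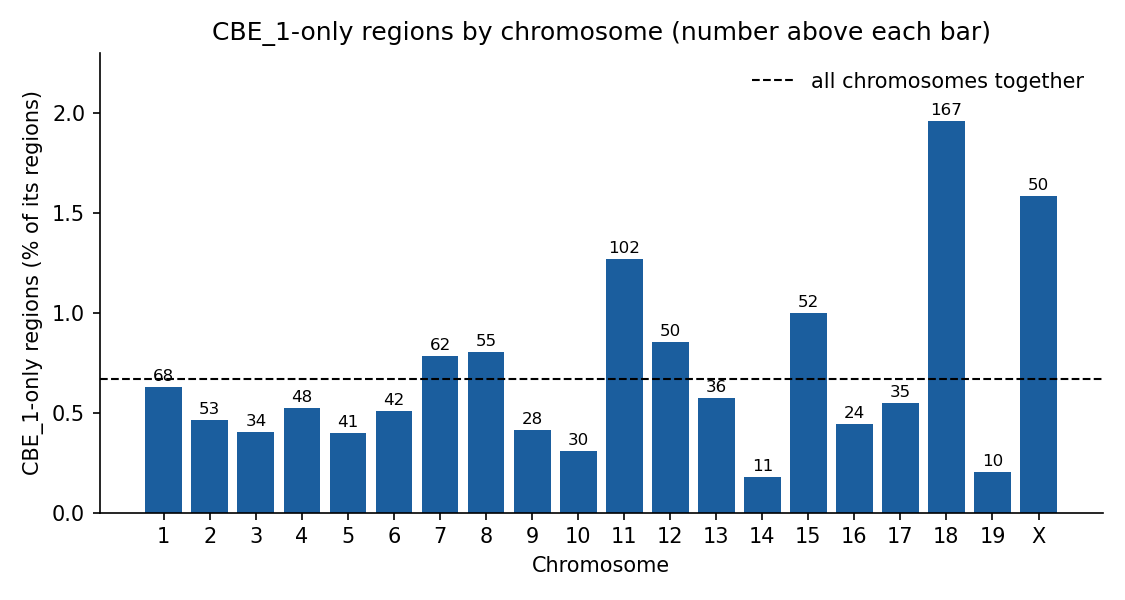
CBE_1-only regions as a percentage of all merged regions of each chromosome (bars, axis from 0), with their number above each bar. The dashed line is the share over all chromosomes, 0.667%, and chromosome 18 (1.96%), X (1.58%) and 11 (1.27%) stand highest.

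In the IgH locus CBE_1-only regions were few in number but a larger share of what was open. The window for the locus was set from general knowledge of mm9 with approximate borders, and its regions run from 114340307 to 117293430 on chromosome 12. It held 16 members of 381 regions (4.20%), against 34 of 5468 (0.622%) on the rest of the chromosome. Among regions with a peak in both CBE_1 lists the members were 6.87% of 233, against 1.65% of 2057. The 16 regions are 1.60% of all members, and the share was 0.970% of 4844 and 0.787% of 4829 without CBE_1 replicate 1 or 2. The window also held a larger share of all CBE_1 peaks, 0.419% and 0.420%, than of all WT peaks (0.227% and 0.242%) or all CBE_2 peaks (0.292% and 0.296%), and the part of this in the count of members was not tested.

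None of the IgH members was strong. Folds ran from 2.56 to 4.22 in replicate 1 and from 2.40 to 3.65 in replicate 2, widths from 225 to 555 bp, and the median mean percentile was 21.5, near the 21.2 of all members. The member with the highest rank in its weaker list, at 115366854 to 115367122, had folds of 3.92 and 3.65, at percentiles 40.0 and 41.0. At the other end, the region at 116441225 to 116441626 had folds of 2.56 and 2.92 and stood at the 1.17th percentile of replicate 1. In several regions the duplicates disagreed, for example at 114901217 to 114901486, with percentiles of 42.6 and 7.95, and at 115531105 to 115531497, with 29.8 and 4.34.

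The IgH locus has its constant region genes at the low coordinates and its VH segments at the high ones, with D, JH and IGCR1 between. The strongest WT-only region of the window, at 114725829 to 114726376 with WT folds of 8.01 and 8.13, served as a landmark. On the constant-region side of it lay 2 members, at 114485628 to 114486031 (folds 2.87 and 3.13) and 114643511 to 114643917 (3.02 and 2.81). On the VH side lay the other 14, from 114824945 to 117042520. The first of them, at 114824945 to 114825249 with folds of 3.32 and 2.81, lies 0.606 kb from a region of all 6 lists. The VH-side members were spread over the segment array and not gathered beside the landmark.

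Toward the distal end of the VH array 6 members formed a group from 116795565 to 116898506, on 103 kb with 40 regions, 19 of them in all 6 lists. Its members were at 116795565 to 116795918 (folds 4.22 and 2.92), 116839407 to 116839631 (3.77 and 3.44) and 116846380 to 116846695 (3.17 and 3.02), and then at 116868586 to 116869140 (2.87 and 2.40), 116871999 to 116872516 (2.87 and 3.23) and 116898174 to 116898506 (2.71 and 2.71). This stretch was open in all lines, with 32 and 39 peaks in the CBE_1 lists, 24 and 27 in the WT lists and 25 and 30 in the CBE_2 lists. A pair lay at 116441225 to 116441626 and 116455910 to 116456305 (the latter with folds of 3.47 and 3.65). Among the members with no other within 100 kb were 115725346 to 115725591 (3.47 and 3.13) and 117042172 to 117042520 (4.22 and 2.81).

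IgH members sat close to chromatin that was open in every line. The nearest region of all 6 lists was a median of 3.05 kb away, and within 10 kb for 15 of 16. Those 15 shared regions are separate features, but they were picked by nearness to members and ranked in the lists that chose the members. Their percentile among all shared regions of a library had a median of 30.4 and 31.0 in the CBE_1 libraries, against 9.69 and 8.62 for WT and 10.4 and 16.5 for CBE_2. In 12 of the 15, both CBE_1 libraries ranked above all of the other 4. Genome-wide this held for 22.5% of shared regions, and for 100 of the 172 shared regions of the IgH window (58.1%), so the neighbours of members share a shift that most of the window shows. An example is the shared region at 115365671 to 115366445, where CBE_1 stood at percentiles 20.8 and 28.1, WT at 0.688 and 5.45, and CBE_2 at 3.92 and 3.55. The margin was small in another of the 12, at 114653882 to 114656527 on the constant-region side. There CBE_1 at 41.1 and 44.4 was only just above WT at 40.3 and 37.2, and CBE_2 was low at 7.53 and 6.53.

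**Figure D4:**
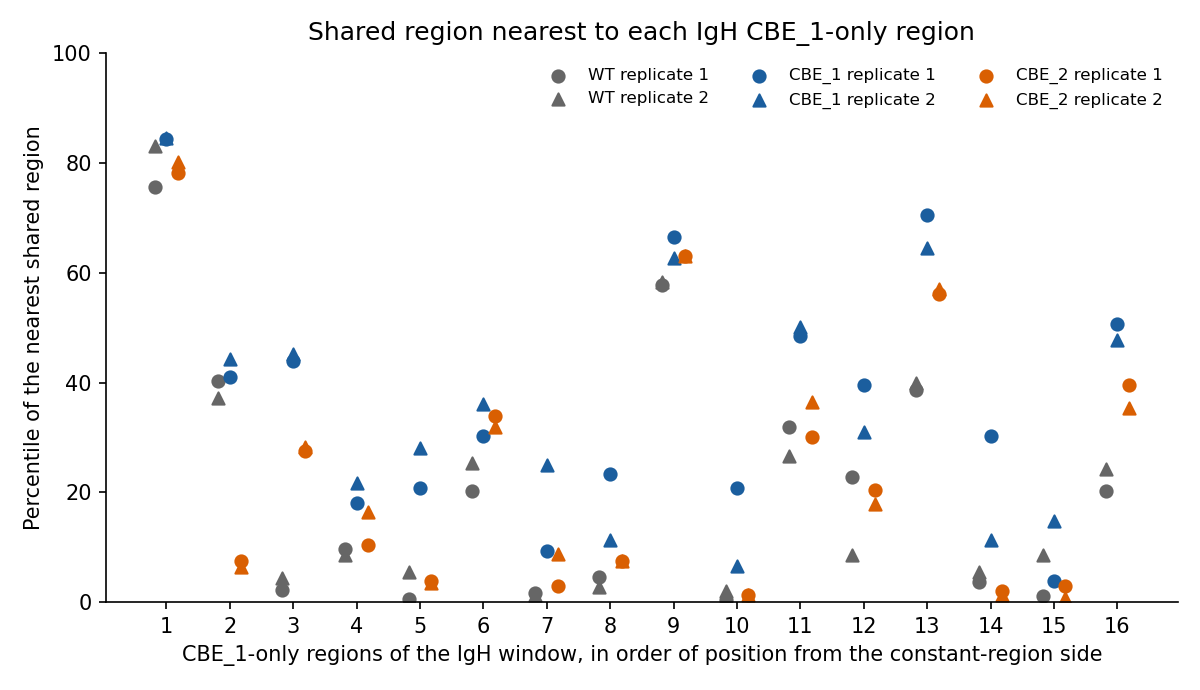
Percentile of the shared region nearest to each of the 16 IgH CBE_1-only regions, in each library (circles for replicate 1, triangles for replicate 2), among the 47767 regions of all 6 lists. The x axis gives the order of the regions and no distance, and 1 of the 16 neighbours, the first, is over 10 kb away. Among the 15 neighbours within 10 kb both CBE_1 points lie above all other points in 12.

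The Igk window, with regions from 67460686 to 70797843 on chromosome 6, held 6 members of 274 regions (2.19%), against 36 of 7976 (0.451%) on the rest of chromosome 6. Among regions with a peak in both CBE_1 lists the shares were 3.28% of 183 and 1.32% of 2727. The window held 0.279% and 0.299% of the CBE_1 peaks and 0.175% to 0.229% of the peaks of the other 4 lists, and the part of this in the count of members was not tested. One of the 6 members, at 69086680 to 69086984 with folds of 5.58 and 4.79, was strong. The other 5 had folds of 2.87 to 3.62 and of 2.92 to 3.54. They lay at 68206514 to 68207154, 69388094 to 69388301, 70523035 to 70523283, 70653885 to 70654162 and 70775484 to 70775801, each over 100 kb from the next member. The last 3 of these had a peak of another line within 1 kb. The Igk members thus stood singly, and made up 0.601% of all members. The share was 0.599% and 0.228% without CBE_1 replicate 1 or 2, and 1.26% (5 members) with the better 50% of each list.

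The median distance of members to the nearest region of all 6 lists was 4.40 kb, against 6.21 kb for the 101957 regions that were not in all 6 lists, and it was 13.9 kb for CBE_2-only and 9.87 kb for WT-only regions. Within 10 kb of such a region were 65.9% of members, 58.4% of all regions not in all 6 lists, 43.3% of CBE_2-only and 50.3% of WT-only regions. Within 1 kb the shares were 22.3%, 21.0%, 13.4% and 15.5%. Regions are not replicates, so these differences were not tested. The median for CBE_1 was 16.5 kb with the better 50% of each list and 2.59 kb without CBE_1 replicate 1. Strength moved with distance: strong members had a median of 15.5 kb, and those with both percentiles under 25 a median of 2.52 kb.

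Many members were flanked closely by a peak of another line without touching it. A WT or CBE_2 peak lay within 1 kb of 376 members (37.7%), in WT for 298 and in CBE_2 for 302, and the median distance was 1.87 kb. Strong members had such a peak within 1 kb in 7.14%, and members with both percentiles under 25 in 49.7%. At the other extreme 104 members (10.4%) were over 100 kb from any region of all 6 lists. The farthest were on chromosome X, at 86047693 to 86048250 (2883 kb, folds 3.47 and 4.90), 85637105 to 85637703 (2472 kb, folds 3.92 and 3.65) and 85615938 to 85616468 (2451 kb, folds 3.17 and 3.65).

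**Figure D5:**
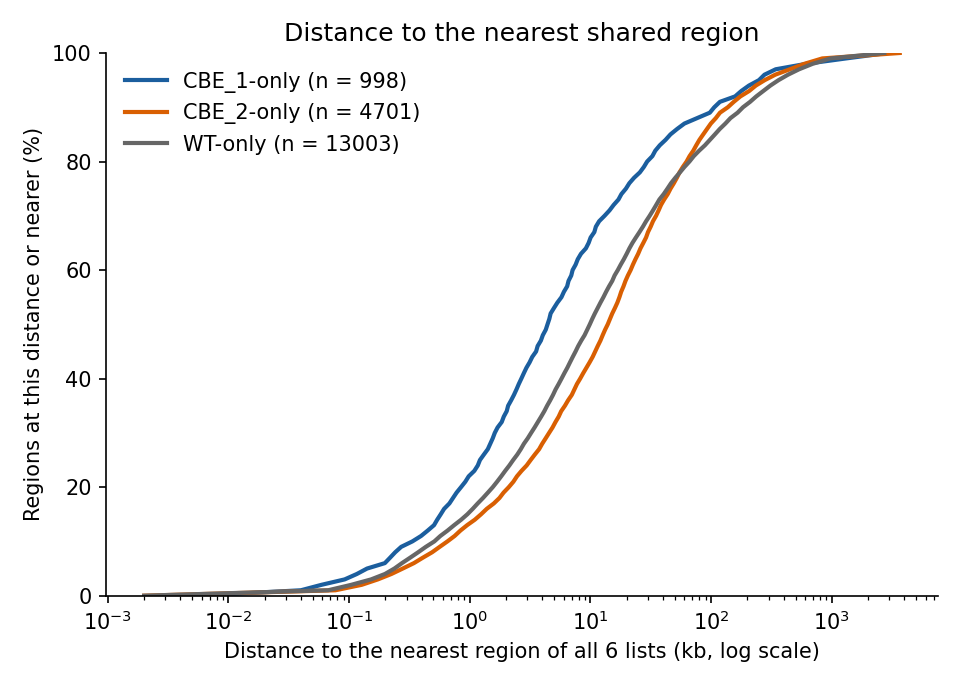
Share of regions (y axis, percent) whose distance to the nearest region of all 6 lists is at most the value on the x axis (kb, log scale), for CBE_1-only, CBE_2-only and WT-only regions. The CBE_1-only curve lies to the left over most of its length, with medians of 4.40, 13.9 and 9.87 kb. The curves cross at the far end, where the 99th percentiles are 1312, 833 and 978 kb.

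Shared regions beside members ranked higher in CBE_1 than in the other lines. There were 628 shared regions within 10 kb of a member, where the CBE_1 libraries had median percentiles of 62.7 and 60.7, the WT libraries 53.1 and 52.8 and the CBE_2 libraries 56.1 and 56.0. Both CBE_1 libraries ranked above all other 4 in 37.4% of them and below in 10.7%, against 22.5% and 19.7% of all shared regions. The same held around the regions of each other line: neighbours of CBE_2-only regions had medians of 58.2 and 58.0 in CBE_2 and 45.8 to 50.1 elsewhere, and neighbours of WT-only regions 60.4 and 60.2 in WT and 50.1 to 51.2 elsewhere. Around members on chromosome 18, WT stood at 50.3 and 46.7 and CBE_2 at 48.7 and 46.3, below the 61.3 and 61.9 of CBE_1. Over all shared regions of that chromosome the medians were 47.8 and 47.3 in WT, 39.5 and 40.4 in CBE_2, and 47.5 and 47.8 in CBE_1. The ranks come from the lists that chose the members, so they are a description of nearby features and were not tested.

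The border of the rule is thin. Just inside it were regions such as chromosome 13 at 73866561 to 73866962, with folds of 2.56 and 2.29 at percentiles 1.17 and 0.456, chromosome 5 at 125895745 to 125896039 (2.56 and 2.19) and chromosome 1 at 95063345 to 95063790 (2.56 and 2.40). Just outside were the 830 regions with a peak in 1 other list, whose extra peak stood at a median percentile of 16.5. The 3 with the weakest extra peak were chromosome 12 at 32928193 to 32928651, with CBE_1 folds of 3.17 and 3.54 and a fold of 2.15 in CBE_2 replicate 2, chromosome 1 at 136241160 to 136241571 (4.37 and 3.13, against 2.33 in CBE_2 replicate 1) and chromosome 14 at 122040305 to 122040697 (2.56 and 2.61, against 2.33 in CBE_2 replicate 1). In the CBE_1 lists the members and the 830 regions had median mean percentiles of 21.2 and 20.8, and median widths of 392 and 438 bp.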

How the data were processed

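Peak lists of 6 ATAC-seq libraries (3 lines, 2 libraries each) were used, 1 list per library. Per the submitters' processing notes, Trimmomatic, Bowtie2, SAMtools and Picard were used, with build mm9. Not given in the sources used here are the peak caller, its settings and any shift of reads for the transposase. The deposited score, the deposited fold (a ratio over background) and the deposited −log10 p-value and q-value are the authors' own per-peak values, and they serve here to describe or rank peaks inside 1 list. The score and q-value give no result here.

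Peaks were merged with Python 3.11.15 and pandas 2.3.3, tested on simulated lists. A region with several peaks of a list takes the best. Distances run between region edges. Coordinates are 1-based. The reads were not analysed here, so no depth or counting interval is given. No genome or annotation of mm9 was used, so sequences and gene names are not printed. Regions were named by rule: the 10 best by percentile in the weaker list, all in the IgH and Igk windows, the 3 largest groups, the 3 widest, the 3 farthest from shared regions and 3 on each side of the rule's border. The members and lists were chosen with earlier results of these data known. Duplicates were numbered in accession order.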

Additional observations from a re-analysis of the deposited data

Results flagged for a closer look

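The share of peaks on chromosome 18 moved in opposite directions in the mutated lines relative to WT. It was 5.37% and 5.20% in the WT libraries, 5.68% and 5.97% in those of CBE_1, above both, and 3.12% and 3.12% in those of CBE_2, below both. The difference was not tested. This chromosome held 167 of the 998 CBE_1-only regions.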

How the results depend on the processing

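The number of CBE_1-only regions depended most on the lists: it was 396 with the better 50% of each list, 2192 with lists of the same length and 112 for strong regions (both peaks in the better 50%, no peak elsewhere). Without 1 library it ranged from 1171 to 4844, with 4844 and 4829 without CBE_1 replicate 1 and 2. Across the same 3 settings the median width of 392 bp became 707, 418 and 755 bp, the share with another member within 100 kb 20.7%, 53.6% and 19.6%, and the median distance to a region of all 6 lists 16.5, 3.55 and 15.5 kb. In each setting only the regions of that setting count as members. Among the 112 strong regions, 42.9% had any CBE_1-only region, strong or not, within 100 kb. Strong regions had a median percentile of 66.1 by construction and a share of 0% in the IgH window. Merging at 100 bp or more gave 986 regions and a median width of 383 bp. Without chromosome 18, a choice made after seeing the data, 35.9% had another member within 100 kb, and limits of 10 and 1000 kb gave 14.4% and 77.1%. With 1 library left out, the median width ranged from 240 to 394 bp, the median percentile from 12.2 to 21.4, the IgH share from 0.787% to 1.62%, the Igk share from 0.228% to 0.599%, the share within 100 kb from 42.4% to 72.5% and the median distance from 2.59 to 4.40 kb. The lowest widths, percentiles and distances, and the highest counts, came without a CBE_1 library, since presence in 1 list then suffices. The cause of the other changes was not tested. No paired analysis was possible because the result comes from no test and the duplicates carry no pairing. Read depth is unknown, so absence of a peak in a list does not show closed chromatin.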
